A study of Mus musculus with 5 samples.

Results

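The 8 genes described here encode receptors for calcium, amino acids and sweet or savory tastants, and the proteins that carry taste receptor signals. The list was fixed by name: Casr and Gprc6a, Tas1r1, Tas1r2 and Tas1r3, and Gnat3, Plcb2 and Trpm5. All 8 were among the 22042 genes of the bulk table and the 27998 genes of the droplet matrix, each as 1 row. Every one was above 0 in at least 1 bulk library, and 7 of them had at least 1 unique molecular identifier (UMI, a tag that counts a captured RNA molecule once) in a cell of the droplet library.

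Casr is the calcium-sensing receptor, a class C G protein-coupled receptor that aromatic amino acids also activate and that signals largely through Gq and phospholipase C. Gprc6a is a related class C receptor for basic amino acids. TAS1R3 pairs with TAS1R1 to form the savory (amino acid) taste receptor and with TAS1R2 to form the sweet receptor. In taste cells these receptors act through gustducin, whose alpha subunit is encoded by Gnat3, then phospholipase C beta encoded by Plcb2, and finally the calcium-activated cation channel TRPM5. In the intestine 2 kinds of epithelial cell are known for chemosensing: enteroendocrine cells (EECs), which release hormones such as cholecystokinin (CCK) and serotonin, and tuft cells, which use much of the taste cascade.

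All mice were C57Bl/6J, and all carried a Cre driver with a Cre-dependent tdTomato reporter (R26-LSL-tdTomato). In the bulk experiment 6 Cck-Cre; R26-LSL-tdTomato mice aged 6 to 8 weeks gave 1 library each of tdTomato+ (CCK+) and tdTomato- (CCK-) cells sorted from the small intestinal epithelium. Of these, 3 mice had been fasted overnight (here mice A, B and F) and 3 had been fasted and then refed with Ensure (mice C, D and E), so that 12 libraries fell into 4 groups of 3. In the droplet experiment tdTomato+ cells of 4 Neurog3-Cre; R26-LSL-tdTomato mice aged 6 weeks were pooled in 1 library, with no treatment. The reporter marks any cell in which Cre was active at some time, so that CCK+ means a history of the Cck-Cre driver and not CCK protein. Neurog3-Cre labels the descendants of EEC progenitors, and most of the droplet cells were not hormone-high. The public titles of all 4 bulk groups say CCK+, whereas their cell type labels, like the columns of the deposited values, distinguish CCK+ from CCK-. All 10 listed hormones were higher in the CCK+ libraries. Their summed level was 47145 to 112427 normalized counts in CCK+ and 349 to 569 in CCK- libraries.

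Neither fraction was free of other cells. The summed level of 11 immune markers was 5534 to 10491 normalized counts in CCK+ and 447 to 1161 in CCK- libraries, and 10 of the 11 were higher in CCK+. The summed level of 13 tuft markers was 327 to 998 in CCK+ and 355 to 1226 in CCK- libraries. In bulk samples fewer cells of a type and less RNA per cell cannot be told apart. The libraries summed to between 7061155 and 11371114 normalized counts, which is not a depth in reads, and the genes Actb, Gapdh, Eef1a1, Rpl13a, Tbp and Polr2a were at 0 in none of them.

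In the mouse genome (GRCm38, GENCODE M21) Casr lies on the minus strand at chr16:36493696-36562141 and Gprc6a on the minus strand at chr10:51614823-51631461. The 3 Tas1r genes are spread over chromosome 4, with Tas1r2 at chr4:139653538-139670280 on the plus strand, Tas1r1 at chr4:152027914-152038568 and Tas1r3 at chr4:155859268-155863362, both on the minus strand. Gnat3 is at chr5:17962549-18019834 (plus), Trpm5 at chr7:143069153-143094642 (minus) and Plcb2 at chr2:118707517-118728438 (minus). All are protein-coding. All of Tssc4 lies within Trpm5, on the other strand, and the annotation of Tas1r3 overlaps an end of Dvl1, also on the other strand. Strand use is not stated for the bulk counting, so reads from these overlaps cannot be assigned with certainty. Tssc4 stood at 16.6 to 82.2 normalized counts over the 12 libraries and Dvl1 at 188 to 373, above every value of Tas1r3 given below. The 5′ part of Tas1r2 overlaps the gene model Gm21969 on the same strand.

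The start-site regions of 4 members are shown because Casr led the CCK+ cells and because Trpm5, Plcb2 and Gnat3 shared the tuft cells in the results that follow. Each runs 5′ to 3′ on the strand of its gene, from 250 bases before to 50 bases after the RefSeq start (GRCm38.p6). Capitals mark CAGATG, an E-box of the kind bound by NEUROD1, a factor of EECs.
Casr, chr16:36562085-36562384, minus strand: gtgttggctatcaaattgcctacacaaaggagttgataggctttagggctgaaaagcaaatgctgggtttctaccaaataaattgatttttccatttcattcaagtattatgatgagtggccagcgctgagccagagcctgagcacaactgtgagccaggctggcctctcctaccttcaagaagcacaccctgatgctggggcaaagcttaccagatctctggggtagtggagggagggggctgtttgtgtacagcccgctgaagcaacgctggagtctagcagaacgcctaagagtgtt
Gnat3, chr5:17962320-17962619, plus strand: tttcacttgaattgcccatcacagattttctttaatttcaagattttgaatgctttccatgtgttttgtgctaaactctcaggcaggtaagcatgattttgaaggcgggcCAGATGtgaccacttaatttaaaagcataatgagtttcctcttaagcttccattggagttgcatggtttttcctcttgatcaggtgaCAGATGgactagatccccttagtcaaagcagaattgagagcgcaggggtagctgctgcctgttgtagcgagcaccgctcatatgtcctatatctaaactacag
Trpm5, chr7:143094593-143094892, minus strand: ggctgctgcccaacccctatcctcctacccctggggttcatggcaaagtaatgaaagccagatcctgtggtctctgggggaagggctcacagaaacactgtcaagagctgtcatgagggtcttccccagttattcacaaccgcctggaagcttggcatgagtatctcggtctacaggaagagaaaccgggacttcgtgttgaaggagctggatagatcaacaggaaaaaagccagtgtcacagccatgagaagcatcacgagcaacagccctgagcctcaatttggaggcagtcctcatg
Plcb2, chr2:118728389-118728688, minus strand: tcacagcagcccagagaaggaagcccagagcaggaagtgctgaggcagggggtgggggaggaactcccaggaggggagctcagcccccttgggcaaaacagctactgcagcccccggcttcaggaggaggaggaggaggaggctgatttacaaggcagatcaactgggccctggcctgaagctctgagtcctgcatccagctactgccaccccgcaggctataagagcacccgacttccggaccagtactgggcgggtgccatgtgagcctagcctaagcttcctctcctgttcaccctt
Letters were searched on both strands. CAGATG occurred 2 times in the Gnat3 region, beginning at positions -140 and -53 from the start, and not in the regions of Casr, Trpm5 or Plcb2. Over all 8 members 4 regions held it (Gnat3, Gprc6a, Tas1r1 and Tas1r3), beside 17.2% of the 32851 start-site regions of the table. The octamer ATGCAAAT, bound by factors of the POU2F family to which the tuft cell factor POU2F3 belongs, was in none of the 8 and in 1.74% of all regions, the E-box CAGCTG was in 2 (Tas1r1 and Tas1r3) and in 16.3% of all regions, and TATAAA was in none of the 8 and in 13.6% of all. None of these matches overlapped another. The Casr region was 49.7% G or C and the Plcb2 region 61.7%, beside a median of 52.7% over all regions.

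Casr set CCK+ apart from CCK- cells. In CCK+ libraries its normalized count was 95.5, 98.4 and 94.8 in fasted mice A, B and F, and 148, 102 and 75.2 in refed mice C, D and E. In CCK- libraries it was listed at 0 in all 3 fasted mice and in refed mice C and E, and stood at 0.988 in mouse D. The lowest CCK+ library thus lay far above the highest CCK- library, and no other member separated the fractions without overlap. The share of all 22042 genes that separate the fractions so was not counted. The difference was 6.50 ± 0.36 (SE) on the scale of log2(normalized count + 1), with an adjusted p of 9.07e-09 (limma, Benjamini-Hochberg over all 22042 genes), and Casr was higher in CCK+ in 6 of 6 mice. The size depends on the number added before the logarithm, since most CCK- values are 0: it was 7.39 with 0.5 and 4.35 with 5. The call was kept without each library in turn, with values from 6.37 to 6.66.

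Over the 8 members, Casr and Plcb2 were called higher in CCK+ cells and Gnat3 was called lower, whereas 5 were not called. For comparison, 19.6% of all genes tested were called higher and 14.1% lower, so that 2 of 8 and 1 of 8 were near the share of all genes.

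**Figure D1:**
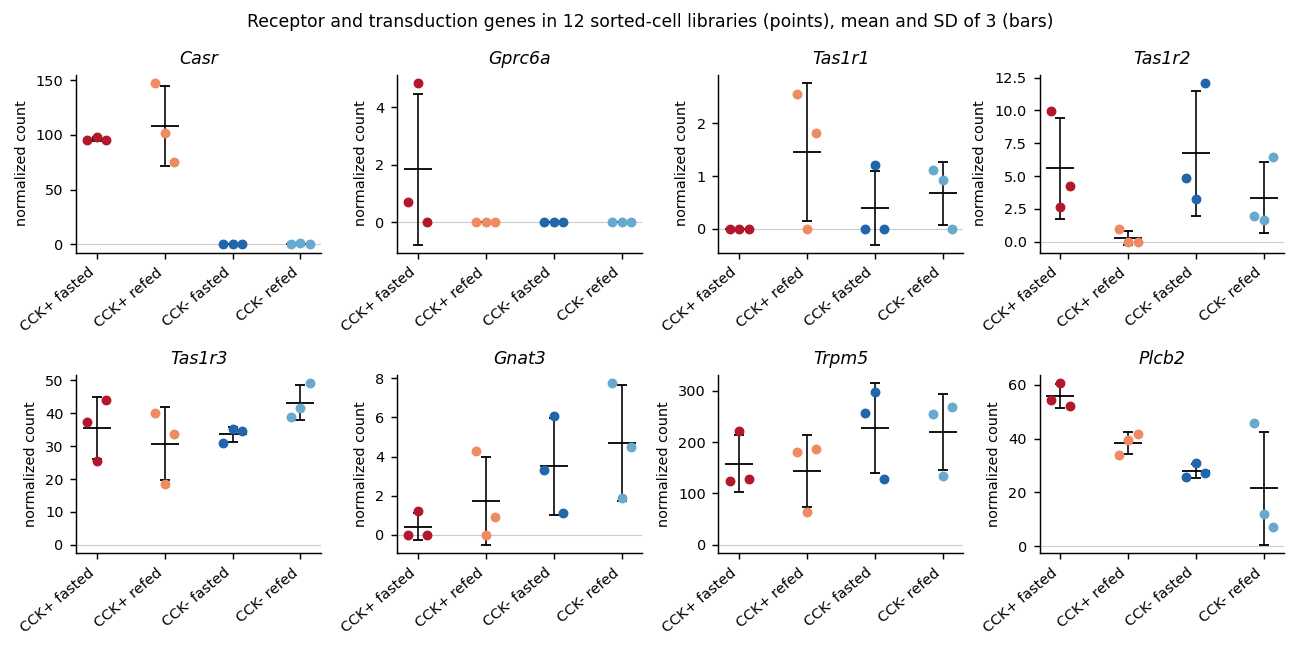
Normalized counts of the 8 genes in each of 12 bulk libraries. Points are libraries, horizontal bars the mean of 3 mice and whiskers the SD. Each panel has its own linear vertical axis. Casr stands between 75.2 and 148 in the 6 CCK+ libraries and at 0 or 0.988 in the 6 CCK- libraries, and the CCK+ and CCK- fractions overlap in every other panel.

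Gprc6a, the amino acid receptor related to Casr, was at the edge of detection. It stood at 0.704 in mouse A and 4.86 in mouse B of the fasted CCK+ group and was listed at 0 in the other 10 libraries. The difference between CCK+ and CCK- was 0.55 (95% interval -0.22 to 1.33, limma adjusted p = 0.278). In the droplet data 1 of 9451 cells held a Gprc6a UMI.

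The savory receptor subunit Tas1r1 was likewise near 0 everywhere. Of the 12 libraries 7 listed it at 0, and the highest, refed CCK+ of mouse C, stood at 2.56. In the droplet data 0 of 9451 cells had a Tas1r1 UMI. By 3 counts of the total this allows up to 0.0317% of cells with a UMI, and it sets no limit on cells that express the gene below detection. The difference between CCK+ and CCK- was 0.03 (interval -0.78 to 0.83). Within CCK+ cells it was listed at 0 in all 3 fasted libraries and stood at 2.56, 0 and 1.81 in the refed ones, a difference of 1.11 (interval -0.03 to 2.25, limma adjusted p = 0.310).

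The sweet receptor subunit Tas1r2 was low but more often present. In CCK+ cells it was 9.94, 2.64 and 4.22 in fasted mice A, B and F and 0.926, 0 and 0 in refed mice C, D and E. In CCK- cells it was 4.82, 3.22 and 12.1 in the fasted and 1.96, 1.64 and 6.48 in the refed mice. CCK+ libraries were lower than CCK- libraries in 5 of 6 mice, by 0.93 on the log2 scale (interval -1.93 to 0.08, adjusted p = 0.153, limma). Only 1 cell of the droplet library held a Tas1r2 UMI, and it was neither hormone-high nor a tuft cell as defined further on.

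Tas1r3, the subunit common to both receptors, was above 0 in all 12 libraries. It ranged from 18.6 to 44.0 normalized counts in CCK+ and from 31.1 to 49.2 in CCK- libraries, with means of 33.2 ± 9.54 and 38.4 ± 6.42 (SD, n = 6 libraries each). The fractions overlapped, and the difference was -0.25 (interval -0.80 to 0.30, adjusted p = 0.507, limma). Its overlap with Dvl1 in GRCm38 is short, from 155859268 to 155859303, in a gene of 4095 bases. Reads from that stretch cannot be told apart in these values.

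Gnat3, the alpha subunit of gustducin, was the member called lower in CCK+ cells. CCK+ libraries stood at 0, 1.21 and 0 in fasted mice A, B and F and at 4.26, 0 and 0.907 in refed mice C, D and E. CCK- libraries of the same mice stood at 3.33, 6.07 and 1.12, and at 7.77, 1.85 and 4.47. The CCK+ library was the lower in 6 of 6 mice, though the ranges of the fractions overlapped. The difference was -1.44 ± 0.50 (adjusted p = 0.0387, limma). At these low levels the call was not stable: the adjusted p was 0.0688 after scaling the libraries to equal sums, and leaving out 1 library ended it in 8 of 12 cases, with adjusted p up to 0.108. It was kept only without the CCK+ library of mouse B or C or the CCK- library of mouse D or F.

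Plcb2, the phospholipase C of the taste cascade, was called higher in CCK+ cells. It stood at 54.4, 60.7 and 52.0 in fasted and 33.8, 39.6 and 41.7 in refed CCK+ libraries, and at 25.7, 30.9 and 27.3 in fasted and 45.7, 11.8 and 7.10 in refed CCK- libraries. Mouse C was the exception, with the higher value in its CCK- library. The difference was 1.09 ± 0.36 (adjusted p = 0.0293, limma). Leaving out any library other than the refed CCK- library of mouse C, the highest CCK- value, ended the call, with adjusted p from 0.0510 to 0.0778, whereas without that library the difference was 1.46 (adjusted p = 0.000626). Of the 11 immune markers given above, 10 were higher in CCK+ as well. Ptprc, which marks leukocytes and is also found in tuft cells, was 636 to 1678 normalized counts in CCK+ and 44.3 to 113 in CCK- libraries. In mouse C the summed immune markers were 8262 in CCK+ and 741 in CCK-, whereas Plcb2 was higher in CCK-. The part of immune cells in the Plcb2 difference was not tested.

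Trpm5, the cation channel at the end of the cascade, was present in both fractions. In CCK+ cells it was 124, 221 and 129 in fasted mice A, B and F and 181, 63.9 and 187 in refed mice C, D and E, and in CCK- cells of the same mice 256, 296 and 128, and 254, 135 and 268. The fractions overlapped, but the CCK+ library was lower in 5 of 6 mice. The difference was -0.59 (interval -1.24 to 0.06, adjusted p = 0.160, limma) and was not called. When each mouse served as its own block, the size was the same with an SE of 0.16, and it was called lower (adjusted p = 0.0176). The block changed no other member's call, and the number of members called went from 3 to 4. The summed tuft markers were lowest in both libraries of mouse D (327 in CCK+ and 355 in CCK-), where Trpm5 was 63.9 and 135. Mouse E was different, with a higher tuft sum in CCK+ (532) than in CCK- (435) and a lower Trpm5 value (187 and 268). In mouse F, where Trpm5 was alike in both fractions, the sums were 573 and 442. Of the 13 tuft markers 1 was called higher in CCK+ cells, the prostaglandin D synthase Hpgds, and 12 were not called, with a median difference of -0.27. Their part in the Trpm5 values was not tested.

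**Figure D2:**
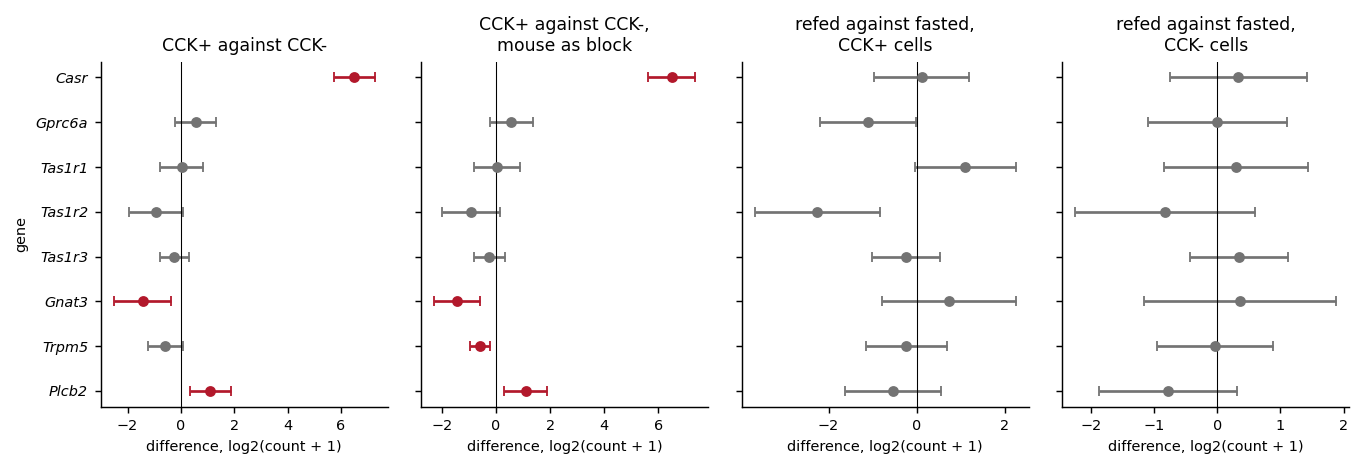
Differences on the log2(normalized count + 1) scale with 95% intervals from limma for the 8 genes, in 4 panels. Red marks an adjusted p below 0.05 and grey the rest. CCK+ against CCK- is shown without and with mouse as a block, and Trpm5 turns red only with the block. No gene is red in the panels of refed against fasted mice.

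Refeeding changed none of the 8 genes at the threshold in either fraction. In CCK+ cells limma called 561 of 22042 genes (2.55%) and 0 members, 2 of which (Tas1r2 and Gprc6a) had an unadjusted p under 0.05. The largest member value was that of Tas1r2, -2.25 ± 0.66 with an adjusted p of 0.0941, from low counts (0 to 0.926 refed and 2.64 to 9.94 fasted). Plcb2 also had all 3 refed CCK+ libraries (33.8 to 41.7) below the fasted ones (52.0 to 60.7), at -0.53 (limma adjusted p = 0.651). How many of all genes part the 2 states in this way was not counted. In CCK- cells 1.23% of all genes and 0 members were called by limma, with 0 members under an unadjusted p of 0.05, and Tas1r2 was -0.82 (interval -2.24 to 0.60). The test of the difference between the 2 refeeding effects called 0.00454% of genes (1 of 22042) and 0 members, and 0 members had an unadjusted p under 0.05. For Casr the refeeding difference in CCK+ cells was 0.11, with an interval from -0.97 to 1.20, and the 3 refed libraries spanned 75.2 to 148.

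The other genes of taste transduction did not follow 1 pattern. Of 13 listed, 10 were in the table, with 1 called higher in CCK+ cells, 3 called lower and 6 not called. Of all genes 19.6% were called higher and 14.1% lower. The median difference was -0.11 beside 0.09 over all genes. The gene called higher was Itpr3, the IP3 receptor that releases calcium downstream of phospholipase C (1.96, adjusted p = 0.000122, limma). Those called lower were the cation channel Trpm4 (-0.71), the ecto-ATPase Entpd2 (-0.66) and the G protein beta subunit Gnb1 (-0.43). Trpm4 was also the only one of them called after refeeding, lower in refed CCK+ cells (-0.89, adjusted p = 0.0224, limma). Among bitter receptors only Tas2r138 was in the table, at no more than 1.49 normalized counts in any library.

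Among other class C and amino acid receptors some were higher in CCK+ cells. Of 17 listed, 14 were in the table, and 6 were called higher, 0 lower and 8 not called by limma, with a median difference of 0.86, beside 19.6% and 14.1% of all genes and a median of 0.09. The 3 with the largest differences were Gabbr1, a subunit of the GABA-B receptor (5.57), the glutamate receptor Grm4 (4.87) and the orphan receptor Gprc5c (2.70). Gabbr1 averaged 279 normalized counts in CCK+ and 4.69 in CCK- libraries, and Grm4 167 and 4.57. In the droplet data Grm4 was at 0.319 UMIs per 10000 in Tph1-high cells and 0.106 in Cck-high cells, and Gprc5c was at 0.735 in tuft cells, 0.245 in Cck-high and 0.186 in Tph1-high cells.

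The branch through which Casr signals was mixed. Of 13 genes listed for Gq and phospholipase C signaling, 5 were called higher and 3 lower in CCK+ cells, beside 19.6% and 14.1% of all genes. Their median difference was 0.61, beside 0.09 over all genes. The list also held Ramp1 and Ramp3, which modify receptors and are not steps of that signaling. The largest differences upward were Plcb4, another phospholipase C beta (4.56), the IP3 receptor Itpr1 (2.24) and the receptor-activity-modifying protein Ramp3 (1.69). Downward these were the protein kinase Prkca (-0.70), Plcb3 (-0.61) and the G protein Gna11 (-0.58). Ramp3 was near 0, with a mean of 3.12 normalized counts in CCK+ libraries. It was listed at 0 in 7 of 12 libraries, among them every CCK- library. Plcb4 and Itpr1 averaged 322 and 542 normalized counts in CCK+ libraries, beside 13.5 and 123 in CCK-. In refed CCK+ cells Itpr2 was called lower (-0.95, adjusted p = 0.0356, limma), and no other gene of the branch was called.

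Over the 12 bulk libraries, the genes whose log2 values followed each member most closely were looked up among 14035 genes with a mean of at least 10 in a group, for the 4 members above 0 in at least 10 libraries. Plcb2 was followed most closely by Lpcat1 (Pearson r = 0.938), Ttc6 and Hsbp1l1, Trpm5 by Sprr2a1 (r = 0.899), Sprr2a3 and Sprr2a2, Tas1r3 by Gm14048 (r = 0.868), Oxct2b and Med17, and Tas1r2 by Ppip5k1 (r = 0.899), Mcoln1 and Ptprh. The 3 Sprr2a genes are near-identical copies between which reads can be split. These values are descriptions of 12 libraries that share their mice and normalization.

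The droplet library assigned the members to single cells. Barcodes with more than 1000 genes and under 10% mitochondrial UMIs gave 9451 cells with a median of 5984 UMIs. A cell was called hormone-high when Cck held at least 500 or Tph1, the enzyme of serotonin synthesis, at least 10 of 10000 of its UMIs, and a tuft cell when it held a UMI of Dclk1. There were 978 cells with high Cck only, 2492 with high Tph1 only and 268 with both. A further 348 were tuft cells that were not hormone-high, 115 were both tuft and hormone-high, and 5365 were neither. Since 1 Dclk1 UMI is a loose rule, tuft cells were also taken as the 385 cells with UMIs of at least 3 of 13 tuft markers. Doublets were not removed, there is 1 library, and so no test was made: intervals below are exact 95% intervals for counting error only.

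In single cells Casr was found mainly among hormone-high cells, and most often in those with high Cck. It was present in 81 cells (85 UMIs), of which 65 (80.2%, interval 69.9 to 88.3%) were hormone-high, 7 held Dclk1, 4 of these being hormone-high too, and 13 were neither. A Casr UMI was held by 55 of 1246 Cck-high cells (4.41%, interval 3.34 to 5.71%), as against 10 of 2492 cells with high Tph1 only (0.401%, interval 0.193 to 0.737%). The share was 7.09% (4.32 to 10.8%) in the 268 cells with high Cck and Tph1 and 3.68% (2.59 to 5.06%) in those with high Cck alone, and these intervals overlap. Among cells that were neither, which serve as the background, it was 0.242% (0.129 to 0.414%). The median depths were 6296 UMIs in Cck-high cells, 3226 in those with Tph1 alone and 7462 in cells that were neither.

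At equal depth the share was again largest in Cck-high cells. Each cell was thinned to 2000 UMIs, which left out 58 shallower cells, all of them Tph1-high. Casr was then found in 1.36% (0.797 to 2.18%) of Cck-high cells. The share was 0.247% (0.0905 to 0.536%) with Tph1 alone and 0.149% (0.0644 to 0.294%) in cells that were neither, with overlapping intervals. As a level before thinning, Casr was at 0.0717 UMIs per 10000 (0.0546 to 0.0924) in Cck-high cells. In cells that were neither it was at 0.00285 (0.00152 to 0.00487). Barcodes with 1 to 100 UMIs, which hold free RNA, gave 0.0249 (0.00809 to 0.0581), from 5 Casr UMIs among 2007644.

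Along the Cck level of the cell the Casr share was higher in the Cck-high ranges than under 50 Cck UMIs per 10000. It was 0.221% in cells with under 10 Cck UMIs per 10000 and 0.333% from 10 to 50. From 50 to 200 it was 0.870% (0.0220 to 4.75%), on 1 Casr cell. From 200 to 500 it was 1.69% (0.206 to 5.99%), on 2 Casr cells. In the 3 Cck-high ranges it was 4.38% (500 to 1000), 4.47% (1000 to 2000) and 4.30% (over 2000), on 251, 716 and 279 cells, with intervals that overlap almost entirely. After thinning to 2000 UMIs the shares were 0.0950% under 10, 0.189% from 10 to 50, 0.870% from 50 to 200 and 0.847% from 200 to 500. In the 3 Cck-high ranges they were then 0.797%, 1.54% and 1.43%. Along Tph1 the Casr share before thinning peaked at intermediate levels, with 2.81% from 5 to 10 and 2.33% from 10 to 20 per 10000. It fell to 0.485% in the 824 cells at 50 or more. The median depth was lower at the high end, 3094 UMIs at 50 or more and 6689 from 5 to 10. After thinning to 2000 UMIs the Casr share was 0.703% from 5 to 10, 0.842% from 10 to 20, 0.307% from 20 to 50 and 0.373% beyond. Of the 29 Tph1-high cells with Casr, 19 were Cck-high as well, so the pattern along Tph1 is not separate from Cck.

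**Figure D3:**
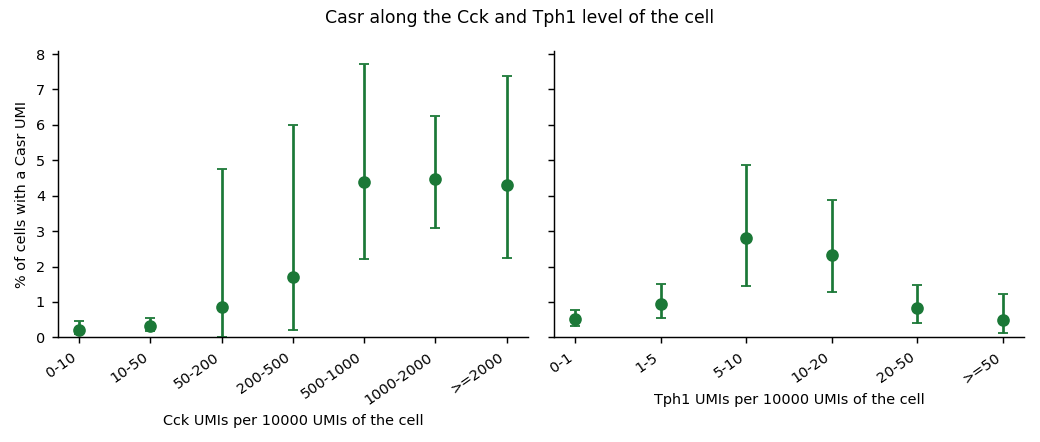
Percentage of cells with a Casr UMI (vertical axis, linear) by the Cck level (left) and Tph1 level (right) of the cell, in UMIs per 10000. Points are shares of cells and whiskers exact 95% binomial intervals. The share is 4.30 to 4.47% in the 3 highest Cck ranges and 0.221% in the lowest, and along Tph1 it is highest from 5 to 10.

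Casr was also found in cells without high Cck, since 55 of its 81 cells were Cck-high. Other hormones were called high at 500 of 10000 UMIs for Ghrl, the ghrelin gene, Gip and Sst and at 50 for Gcg and Pyy. Of 350 cells with high Ghrl 15 held Casr (4.29%, interval 2.42 to 6.97%). Most of these were Cck-high as well: in a split added after the data were seen, it was 13 of 193 cells with high Ghrl and Cck (6.74%, 3.63 to 11.2%) and 2 of 157 with high Ghrl alone (1.27%, 0.155 to 4.53%). No cell with high Sst was Cck-high, and 2 of 60 held Casr (3.33%, 0.406 to 11.5%). It was in 6 of 426 cells with high Pyy (1.41%, 0.519 to 3.04%), 2 of 143 with high Gcg (1.40%, 0.170 to 4.96%) and 1 of 197 with high Gip (0.508%, 0.0129 to 2.80%). Without the Cck-high cells these were 5 of 291 with high Pyy, 0 of 11 with high Gcg and 0 of 161 with high Gip (intervals 0.560 to 3.96%, up to 28.5% and up to 2.27%). These classes overlap each other and the Cck-high class: Cck-high cells that also had high Gcg or Pyy held it in 2 of 214 cases (0.935%, 0.113 to 3.34%) and those with none of high Gcg, Pyy and Tph1 in 34 of 786 (4.33%, 3.01 to 5.99%). The hormone with most UMIs was Cck in 37 of the 81 Casr cells, secretin (Sct) in 32, Ghrl in 9, Sst in 2 and Gip in 1. Of the 13 that were neither, 5 passed the limit of another hormone. Of all 81, 80 held a UMI of the granin genes Chga or Chgb, which mark EECs. This does not set them apart, since 8736 of all 9451 cells held a Chgb UMI. So did 4750 of the 5415 cells that were not hormone-high and had under 3 tuft markers.

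The 8 remaining Casr cells were among 4996 cells that passed no hormone limit and had no tuft identity, a share of 0.160% (0.0692 to 0.315%). In 385 cells with at least 3 tuft markers the share was 1.30% (0.423 to 3.005%) on 5 cells, and after thinning 0 of 384 such cells held it (interval up to 0.956%).

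Over the genes with a UMI in at least 20% of and at least 20 Casr cells, those with the highest ratio of UMIs per 10000 in cells with Casr to cells without it were Cyp2j5 (12.03), Adamts5 (11.2), Pzp (9.74), Gm933 (7.67) and Habp2 (6.98). Pzp was in 40 of the 81 cells. Each is a description of 1 library.

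The transduction genes of the taste cascade were found in larger shares of tuft cells than of other cells. Trpm5 was in 526 cells with 1206 UMIs, of which 295 (56.1%) held Dclk1 and 240 of those were not hormone-high. With mitochondrial UMIs limited to 5%, 32.8% of the 271 Trpm5 cells left held Dclk1, so that Trpm5 cells were then mostly outside this class. Of the 385 cells with at least 3 tuft markers 318 held it (82.6%, interval 78.4 to 86.3%), beside 208 of 9066 other cells (2.29%, 2.00 to 2.62%). As a level it was 3.68 UMIs per 10000 (3.45 to 3.91) in the former and 0.0340 (0.0296 to 0.0388) in the latter, and 0.179 (0.126 to 0.248) in free RNA. Under the 5% limit, a comparison added after the data were seen, it was in 95 of 127 cells with at least 3 markers (74.8%, 66.3 to 82.1%) and in 176 of 8022 others (2.19%, 1.88 to 2.54%). The share rose with the number of tuft markers, from 2.27% of cells with 0 markers to 39.0% with 3 or 4 and 98.1% of the 156 cells with 9 or more.

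Most Trpm5 cells outside the tuft class held a single UMI. With at least 2 UMIs required, 244 cells were left and 91.4% of them held Dclk1, as against 56.1% of the 526 with at least 1. In Cck-high cells with under 3 tuft markers 20 of 1225 held Trpm5 (1.63%, 1.00 to 2.51%), in Tph1-high cells 61 of 2690 (2.27%, 1.74 to 2.90%) and in other cells with under 3 markers 134 of 5415 (2.47%, 2.08 to 2.92%). Per 100 UMIs of the 13 tuft markers there were 7.80 Trpm5 UMIs (7.32 to 8.30) in tuft cells, 9.18 (6.43 to 12.7) in free RNA, 6.69 (4.14 to 10.2) in these Cck-high cells and 9.67 (8.13 to 11.4) in the other cells. In Tph1-high cells the figure was 14.4 (11.1 to 18.4), and 11.8 (10.2 to 13.5) without the limit on tuft markers. Cells under 3 markers were chosen for few tuft markers, which lowers the divisor, so their ratios cannot be set against that of tuft cells. The intervals cover counting error in the Trpm5 UMIs only. Per 10000 UMIs, Trpm5 in these 3 classes (0.0261, 0.0583 and 0.0300 in Cck-high, Tph1-high and other cells) lay below its level in free RNA. The part of free RNA in them was not tested.

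**Figure D4:**
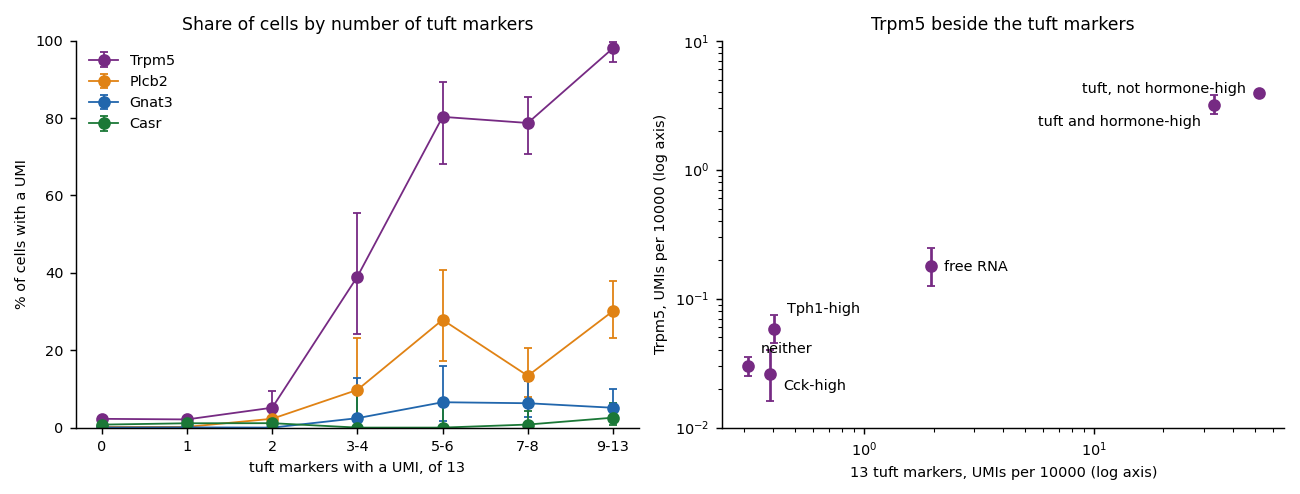
Left, percentage of cells with a UMI of Trpm5, Plcb2, Gnat3 or Casr (vertical axis, linear) by the number of 13 tuft markers found in the cell, with exact 95% intervals. Right, Trpm5 against the summed tuft markers, both in UMIs per 10000 on log axes, with Poisson 95% intervals. Its points are free RNA, cells with at least 3 tuft markers without (tuft, not hormone-high) and with a high hormone and a Dclk1 UMI (tuft and hormone-high), and Cck-high, Tph1-high and other cells (neither) with under 3 markers. Trpm5 reaches 98.1% of cells at 9 or more markers, Casr stays under 3% throughout, and the 3 classes with under 3 markers lie below free RNA in both measures.

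Plcb2 followed the same cells at a lower level. It was in 104 cells with 121 UMIs, of which 79 (76.0%, interval 66.6 to 83.8%) held Dclk1 and 85 had at least 3 tuft markers. Those 85 made up 22.1% (18.0 to 26.6%) of the 385, beside 19 of 9066 other cells (0.210%, 0.126 to 0.327%). In Cck-high cells with under 3 tuft markers 1 of 1225 held it (0.0816%, 0.00207 to 0.454%), at 0.00124 UMIs per 10000 as against 0.379 in tuft cells and 0.00996 in free RNA. Other cells with under 3 markers held it in 16 of 5415 cases (0.295%, 0.169 to 0.479%). With the limit on tuft markers, Cck-high droplet cells, which come from another driver line than the bulk libraries, did not have the larger share. Without it 6 of 1246 Cck-high cells held Plcb2, beside 20 of 5365 cells that were neither. As a level these were at 0.00729 (0.00267 to 0.0159) and 0.00438 (0.00268 to 0.00677) UMIs per 10000, with overlapping intervals. The 2 sides are not alike, since cells that were neither hold no Dclk1 by definition. Of the 348 Dclk1 cells that were not hormone-high, 66 held Plcb2, at 0.300 UMIs per 10000 (0.239 to 0.372). The bulk fractions had no limit on tuft cells. Of 240 cells with a Ptprc UMI 40 held Plcb2, and all 40 had at least 3 tuft markers, whereas 0 of 78 cells with the T cell gene Cd3e held it, which allows a share of up to 3.85%. Over all 732 cells with a UMI of Cd3g, Cd3e or Gzma, 8 held Plcb2, near its share of all cells (104 of 9451, 1.10%). The tuft markers of these 8 were not counted.

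Gnat3 was rare and mostly in the same cells. Its 24 UMIs came from 24 cells, 20 of which held Dclk1 (83.3%, 62.6 to 95.3%) and 21 at least 3 tuft markers. That was 5.45% (3.41 to 8.22%) of the 385 cells, beside 3 of 9066 others (0.0331%, 0.00682 to 0.0967%), and no Gnat3 UMI was found in free RNA (at most 0.0184 per 10000 by the exact interval). Of the 24 cells 7 were hormone-high, 5 of these also holding Dclk1.

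Where these 3 genes were found together, it was almost always in tuft cells. Of 104 Plcb2 cells 78 also held Trpm5, of which 77 had at least 3 tuft markers. Of 24 Gnat3 cells 17 held Trpm5 and 7 held Plcb2, all with at least 3 markers, and 5 cells held all 3 genes. Casr met Trpm5 in 6 cells and Plcb2 in 1.

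**Figure D5:**
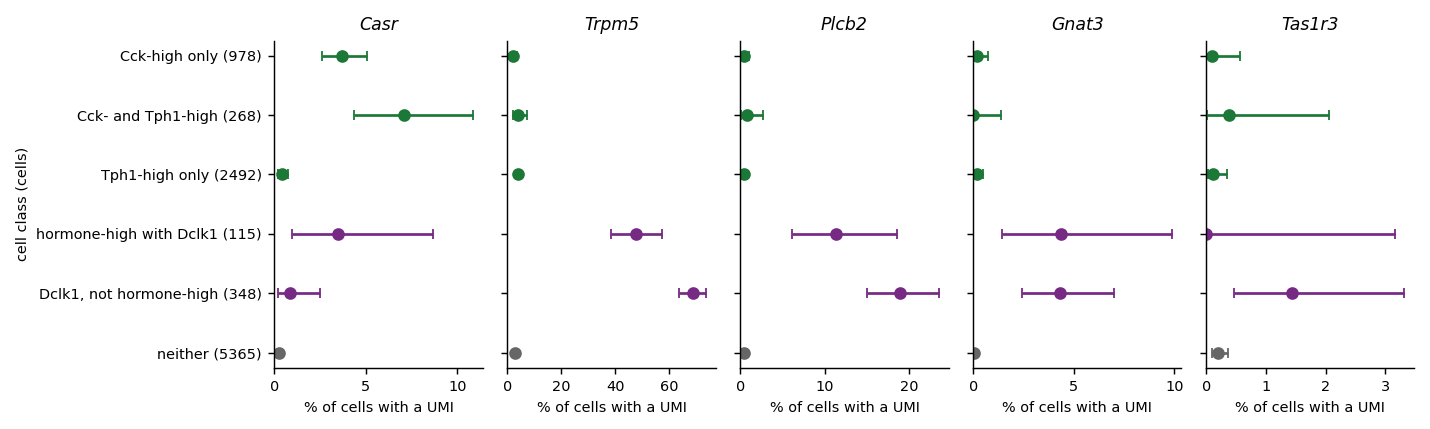
Percentage of cells with a UMI of 5 members (horizontal axes, linear, each with its own range) in 6 cell classes, with exact 95% binomial intervals. Green marks hormone-high, purple Dclk1 and grey neither. Cell numbers stand beside the class names, and the 115 hormone-high cells with Dclk1 are also counted in the 3 green classes. The Casr share is highest in the 268 cells with high Cck and Tph1 (7.09%), and Trpm5, Plcb2 and Gnat3 are higher in both Dclk1 classes than in the other 4.

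The cells that were hormone-high and also held Dclk1 carried both sets of genes. Of these 115 cells 55 held Trpm5 (47.8%, 38.4 to 57.3%), 13 Plcb2 (11.3%, 6.16 to 18.6%), 5 Gnat3 and 4 Casr. They split by tuft markers: of the 72 with at least 3 markers 53 held Trpm5 (73.6%, 61.9 to 83.3%), and of the 43 with fewer 2 did (4.65%, 0.568 to 15.8%). Their median depth was 5389 UMIs, beside 3986 in all hormone-high cells and 5796 in tuft cells that were not hormone-high. Whether they are doublets was not tested.

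Tas1r3 showed no clear home among these cells. It was in 21 cells with 1 UMI each, of which 5 were hormone-high (2 of them Cck-high), 5 held Dclk1 and 11 were neither. The share was 0.134% (0.0434 to 0.312%) in hormone-high cells, 0.205% (0.102 to 0.367%) in cells that were neither and 1.08% (0.352 to 2.50%) in Dclk1 cells, and with at least 3 markers 1.04% (0.284 to 2.64%), on 4 cells. Of the 21, 2 also held Trpm5, and 0 held Gnat3, Tas1r1 or Tas1r2. With mitochondrial UMIs limited to 5%, 1 of 16 Tas1r3 cells was left with Dclk1 (6.25%).

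Genes with the highest ratios in Trpm5 cells were Rgs13 (134), Bmx (104.9), Smpx (102), Pik3cg (93.2) and Fyb (88.6), where Rgs13 is itself one of the tuft markers used. For Plcb2 these were Gng13 (64.5), Chil1, Ahnak2, Lrmp and Fcnaos, and for Gnat3 Fyb (30.0), Nrgn, Sh2d6 and Matk, each in 21 of 24 cells. Sh2d6 is another of the tuft markers used. For Tas1r3 the highest ratio was 1.61 (Ceacam1), followed by the ribosomal genes Rps4x, Rps2 and Rpl31 and by H2afj.

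Of the other taste transduction genes, 8 of 13 had a UMI in the droplet library. Gng13, the gamma subunit of gustducin, was in 71 of 385 tuft cells at 0.524 UMIs per 10000, beside 0.0146 in Cck-high cells, and the succinate receptor Sucnr1 was in 81 at 0.360, beside 0.00486. Itpr3 was highest in Tph1-high cells (2.25, as against 0.750 in tuft and 0.690 in Cck-high cells). The beta subunit Gnb3, Rgs21, Calhm1, Pkd2l1 and Otop1 had no UMI in any of the 9451 cells, and neither did any of the 35 bitter receptor genes of the matrix, each of which allows up to 0.0317% of cells with a UMI by the same rule. In the Gq branch Itpr2 was highest in tuft cells (1.20, as against 0.0437 in Cck-high cells), and Plcb4 and Itpr1 were higher in Cck-high cells (0.256 and 0.254) than in tuft cells (0.0706 and 0.0743).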

How the data were processed

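Droplet sequencing of lineage-traced cells and bulk sequencing of sorted cells were used. The members and all gene lists were chosen with earlier results of these data known. For the droplet library the authors aligned reads to mm10 with Cell Ranger 2.0.1 and deposited UMI counts for all barcodes. Cells had more than 1000 genes and under 10% mitochondrial UMIs, the limits of the study, applied to all barcodes, which kept more cells than the study did. Cells of over 2000 UMIs were thinned with seed 1.

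For the bulk libraries the authors trimmed reads with Trim Galore 0.6.7, quantified them with Salmon 1.6.0 on the GRCm39 transcriptome, summed them per gene and divided them by DESeq2 normalization factors. The deposited signal values are these normalized counts, from amplified cDNA and without whole reads. They were tested with limma 3.58.1 (R 4.3.3) on log2(value + 1), two-sided, with the trend option, fitting the 4 group means of all 12 libraries (leaving 8 degrees of freedom) to all 22042 genes unfiltered, in place of the count test of the study. An adjusted p below 0.05 was called. No fit of refeeding with the mouse as block exists, since each mouse had 1 state. Mice gave both fractions, so that letters pair the libraries. The residual correlation over genes was 0.0583 to 0.0917 within mice and -0.0648 to -0.0146 between them. Named list genes are the 3 called with the largest difference in each direction; those named for refeeding or droplet levels were chosen after their values were seen. Genes like a member are the 3 with the highest r over libraries, or the 5 with the highest ratio over cells, of which 1 is not reported here. Whether replicate mice were littermates is not given in the sources used here. Scripts were tested on simulated data. Alternatives were other added constants, filters, scalings, no trend, the mouse block, 1 state only and each library left out, and in droplets other limits on cells, hormones and tuft cells.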

Additional observations from a re-analysis of the deposited data

How the results depend on the processing

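No member was called for refeeding or for the difference of the refeeding effects under any alternative tried, and Casr was called for CCK+ against CCK- under all of them. The number of members called for CCK+ against CCK- was 1 with the fasted or the refed libraries only, in both cases Casr, and from 1 to 2 when 1 library was left out. It was 1 in 7 of those 12 cases, which also leaves fewer degrees of freedom. With equal library sums the median difference of all genes went from 0.09 to 0.35, and Gnat3 lost its call. With mouse as a replicate block 4 members were called, and the block changed no member's call other than that of Trpm5. The share of Casr cells that were hormone-high was 80.2%, 100% with at least 2 Casr UMIs (4 cells) and 67.9% with Cck of at least 1000 or Tph1 of at least 20. The share of Trpm5 cells that were tuft was 56.1%, 91.4% with at least 2 UMIs, 63.8% after thinning, 60.5% with tuft cells taken by 3 markers, 50% with 2 Dclk1 UMIs and 32.8% with under 5% mitochondrial UMIs, which kept 271 of the 526 cells. That limit kept 45 of 104 Plcb2 cells, 64.4% of them tuft, and 9 of 24 Gnat3 cells; the cause was not tested. With at least 2 UMIs 14 Plcb2 cells were left, 100% of them tuft, and no Gnat3 cell, so that its share had no value there. After thinning 7 Gnat3 cells were left, 57.1% of them tuft. Normalized bulk values give no depth in reads, so that members listed at 0 or near 1 could not be told from undetected ones.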
